A study of Mus musculus with 32 samples.

Results

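The multicopy gene families of the mouse 2-cell stage were examined for H3K27me3 and H2AK119ub in perinatal oocytes. Members were the autosomal protein-coding genes of the RefSeq annotation of GRCm38.p6 whose symbol starts with Zscan4, Obox, Usp17l, Tdpoz, Tcstv, Pramel or Pramef. The rule gave 70 genes of 20661 autosomal protein-coding genes, with 4 Zscan4, 6 Obox, 5 Usp17l, 8 Tdpoz, 2 Tcstv and 45 Pramel genes and no Pramef gene. The rule reads symbols and no measured value, and it was set with earlier results of these data known. Another 2 genes with these prefixes lie on X and 54 autosomal pseudogenes share them, and all of these were left out.

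The series profiled mouse oocytes from ovary by CUT&Tag, in which an antibody directs the Tn5 transposase to chromatin carrying a histone mark. It holds 32 samples in 16 groups of 2, with H3K27me3 in 10 groups and H2AK119ub in 6, and 1 deposited peak list per group. WT oocytes came from the embryonic stage E18.5, postnatal day 1 (P1), day 6 non-growing oocytes (P6) and day 7 growing oocytes (P7), each with both marks. The PRC1ctrl genotype was Ring1-/-; Rnf2F/+; Ddx4-Cre, and the PRC1cKO label reads Ring1-/-; Ring1F/-; Ddx4-Cre, so the floxed gene of the PRC1cKO was not settled from the labels. PRC1ctrl and PRC1cKO oocytes were profiled at P6 (non-growing) and P7 (growing) for H3K27me3. PRC2ctrl (EedF/+; Ddx4-Cre) and PRC2cKO (EedF/-; Ddx4-Cre) oocytes were profiled at P6 (non-growing) for both marks. Ddx4-Cre drives recombination in germ cells, every control and cKO group carries it by its label, and both PRC1 groups also lack Ring1. A histone mark does not identify a cell type, and loss of the targeted protein was not measured in these lists.

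H2AK119ub is the histone ubiquitylation set by Polycomb repressive complex 1 (PRC1), whose catalytic subunits are RING1 and RNF2, and H3K27me3 is the trimethylation set by Polycomb repressive complex 2 (PRC2), which needs EED. The families described here arose by local duplication, lie in tandem clusters, and are known for a burst of transcription in the 2-cell embryo and in rare 2-cell-like embryonic stem cells. ZSCAN4 proteins are zinc finger factors tied to telomere maintenance, OBOX proteins are homeodomain factors of oocytes and early embryos, USP17-like proteins are deubiquitinases, TDPOZ proteins carry TRAF and POZ domains, and PRAMEL proteins are leucine-rich repeat proteins related to the tumour antigen PRAME.

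Promoter sequences of members are shown first, because CpG content is tied to Polycomb recruitment in mammals and because many copies are near-identical. RefSeq promoter sequences (GRCm38.p6, from 250 bp before to 50 bp after the outermost annotated start) were matched for 55 of 70 members and for 16456 of all 20661 genes. The 250 bp before the start are printed 5′ to 3′ on the gene's strand. For the Zscan4 genes, which carried H3K27me3 in no list, capitals mark a match to a DUX-type motif, spelled TGATT and ATCA with any 2 bases between them, which resembles the site bound by the 2-cell factor DUX. The match lies on the opposite strand, so that the letters shown are the reverse complement. Zscan4c is at chr7:11005495-11005744, plus strand, and Zscan4b is at chr7:10905051-10905300, minus strand.
Zscan4c: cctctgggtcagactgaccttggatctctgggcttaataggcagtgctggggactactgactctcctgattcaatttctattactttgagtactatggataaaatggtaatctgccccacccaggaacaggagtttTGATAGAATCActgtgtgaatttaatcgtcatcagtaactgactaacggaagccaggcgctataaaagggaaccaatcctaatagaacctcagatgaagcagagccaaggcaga
Zscan4b: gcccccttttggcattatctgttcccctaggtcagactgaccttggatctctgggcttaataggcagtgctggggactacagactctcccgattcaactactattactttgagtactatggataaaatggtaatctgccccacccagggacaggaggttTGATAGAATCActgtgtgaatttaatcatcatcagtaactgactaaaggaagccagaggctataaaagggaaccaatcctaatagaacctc

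The match began 114 bp before the start in Zscan4c and 91 bp before it in Zscan4b. It was present in 4 of 4 Zscan4 promoters and in no other member with a promoter sequence, against 0.231% of all promoters. Both strands of the whole 300 bp were searched, as for the other motifs. None of the searched motifs contains another. The TATA box letters TATAAA were in 20 of 55 members (36.4%) and in 13.5% of all promoters. The third motif searched, TGCACAC, was in 0 of 55 members and in 3.66% of all promoters. A match describes the letters of the window and is not a measured binding site.

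The next set has CG dinucleotides in capitals. Usp17lc (chr7:103416446-103416695, plus strand), Tdpoz8 (chr3:93068573-93068822, plus strand) and Pramel17 (chr4:101844023-101844272, minus strand) are shown because each carried H3K27me3 in all 10 lists. Pramel1 (chr4:143394191-143394440, plus strand) is shown as the one CpG-rich promoter of the families. Pramel37 (chr5:94070546-94070795, minus strand) is shown because its promoter is identical to that of Pramel50.
Usp17lc: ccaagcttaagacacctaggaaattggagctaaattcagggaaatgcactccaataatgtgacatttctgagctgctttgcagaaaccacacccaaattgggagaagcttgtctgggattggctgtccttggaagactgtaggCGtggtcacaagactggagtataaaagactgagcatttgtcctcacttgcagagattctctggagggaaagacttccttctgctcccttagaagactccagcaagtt
Tdpoz8: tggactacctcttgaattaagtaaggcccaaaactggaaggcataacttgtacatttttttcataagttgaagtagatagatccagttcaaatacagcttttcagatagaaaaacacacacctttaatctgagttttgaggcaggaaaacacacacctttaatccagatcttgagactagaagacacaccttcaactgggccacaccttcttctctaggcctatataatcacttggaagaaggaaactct
Pramel17: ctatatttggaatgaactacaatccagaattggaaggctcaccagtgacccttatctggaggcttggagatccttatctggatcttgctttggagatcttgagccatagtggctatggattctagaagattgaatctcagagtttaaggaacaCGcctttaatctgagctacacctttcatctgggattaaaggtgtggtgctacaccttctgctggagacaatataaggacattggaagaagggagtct
Pramel1: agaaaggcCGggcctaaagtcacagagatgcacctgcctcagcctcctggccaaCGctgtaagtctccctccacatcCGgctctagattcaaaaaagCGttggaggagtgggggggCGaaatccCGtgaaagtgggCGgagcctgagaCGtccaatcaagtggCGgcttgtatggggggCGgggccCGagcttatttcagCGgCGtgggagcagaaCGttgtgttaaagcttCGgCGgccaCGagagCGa
Pramel37: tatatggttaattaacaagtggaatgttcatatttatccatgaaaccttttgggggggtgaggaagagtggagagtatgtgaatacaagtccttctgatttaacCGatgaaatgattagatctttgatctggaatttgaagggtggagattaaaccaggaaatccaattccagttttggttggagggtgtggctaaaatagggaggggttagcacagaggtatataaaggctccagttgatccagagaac

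These stretches held 1 CG in Usp17lc, 0 in Tdpoz8, 1 in Pramel17, 18 in Pramel1 and 1 in Pramel37. Over the 300 bp, members had a median of 1 CpG and a median ratio of observed to expected CpG of 0.0811, against 14 CpG and 0.597 over all genes. Only Pramel1 reached a ratio of 0.6 (20 CpG, ratio 0.765), the level passed by 49.8% of all promoters. Median GC content was 43.3% in members and 56.7% in all genes. Most members of the families therefore had CpG-poor promoters, the Zscan4 genes included (median of 3 CpG, range 1 to 4).

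Genes count as marked where any peak overlaps their span, extended by 1 kb at both ends, by 1 bp or more. H3K27me3 was listed at 31 of 70 members at E18.5, 31 at P1, 25 at P6 and 25 at P7 in WT oocytes. The same call was made for 45.7%, 45.3%, 47.4% and 50% of all autosomal protein-coding genes, and the members' shares were 44.3%, 44.3%, 35.7% and 35.7%. H2AK119ub was listed at 17, 23, 20 and 15 members at these stages, against 75.3%, 66.4%, 72.5% and 57% of all genes. The exact Clopper-Pearson 95% interval of the members' H2AK119ub share ran from 14.8 to 36.0% at E18.5 and from 12.5 to 32.9% at P7, below the share of all genes in each. These intervals cover counting error only, and neighbouring members are not independent. Member windows were shorter than those of all genes, with a median of 8.24 kb against 19.5 kb, so a member had less sequence in which to meet a peak.

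In the oocytes of the crosses, H3K27me3 was listed at 13 members in PRC1ctrl P6 (all genes 46%), 15 in PRC1cKO P6 (45.5%), 16 in PRC1ctrl P7 (44.8%) and 15 in PRC1cKO P7 (44.4%). It was listed at 26 members in PRC2ctrl P6 (46.6%) and at 22 in PRC2cKO P6 (41%). H2AK119ub was listed at 6 members in PRC2ctrl P6 (65.4%) and at 6 in PRC2cKO P6 (63.9%). The members' share lay below that of all genes in 10 of 10 H3K27me3 lists and 6 of 6 H2AK119ub lists. For H3K27me3 this held in 8 of 10 lists without the 1 kb flank. With 25% of the window required to be covered, it held in 6 of 10. For H2AK119ub it held in 6 of 6 lists under each setting. With the 1 kb flank, the exact interval of the members' H3K27me3 share included the share of all genes in several lists. These were WT E18.5 and P1 (32.4 to 56.7%), WT P6 (24.6 to 48.1%), PRC2ctrl (25.9 to 49.5%) and PRC2cKO (20.9 to 43.6%). In WT P7 and in the PRC1ctrl and PRC1cKO lists the H3K27me3 interval lay below the share of all genes. The H2AK119ub intervals did so in 6 of 6 lists.

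**Figure D1:**
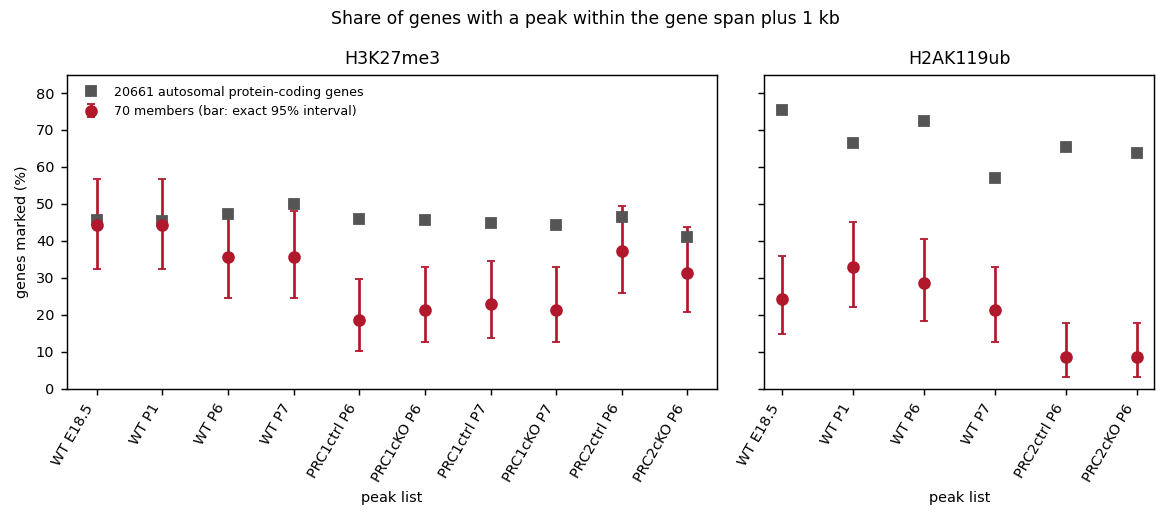
Share of genes with a peak (y axis, %) in each peak list (x axis) for H3K27me3 (left) and H2AK119ub (right). Red points are the 70 members with exact 95% intervals and grey squares are all 20661 autosomal protein-coding genes. In the H2AK119ub panel every member share, from 8.57 to 32.9%, lies below the grey square of the same list.

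Window length does not enter a fixed interval around the start, so the 2 kb centred on the start was also read for the 55 members with a known start. H3K27me3 touched it in 13, 14, 11 and 12 members from E18.5 to P7 in WT, which is 23.6%, 25.5%, 20% and 21.8%, against 31.6%, 32.1%, 34.7% and 38.6% of 16456 genes. H2AK119ub touched it in 6, 9, 9 and 5 members, which is 10.9%, 16.4%, 16.4% and 9.09%, against 62.2%, 49.7%, 53.4% and 38.7% of genes. The gap between these 55 members and all genes was thus wider for H2AK119ub than for H3K27me3 at each WT stage. The 15 members without a known start are missing from this reading and from the CpG classes below. By gene window, H2AK119ub was listed at 8, 7, 8 and 3 of these 15 in WT (53.3%, 46.7%, 53.3% and 20%). H3K27me3 was listed at 7, 8, 6 and 6 of them. Among genes with a CpG ratio under 0.6, H3K27me3 was listed at 50.2 to 58.5% of 8259 genes and at 13.0 to 44.4% of 54 members, and H2AK119ub at 55.1 to 67.5% of genes and 3.70 to 27.8% of members, over the lists of each mark.

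The place of the marks along the gene also differed. In bins of 500 bp, mean H3K27me3 coverage over all genes was highest at the start or in the next bin, with 28.7% (E18.5), 29.9% (P1), 32.4% (P6) and 36.6% (P7) of the bin centred on it. Over the members with a known start, the bin at the start was covered to 19.3%, 23.9%, 16.3% and 15.3%. At 3500 bp past the start the members' mean was 31.3%, 32.1%, 22.7% and 26.1%, and the mean of all genes was 23.9%, 25.1%, 25.6% and 29.1%. Member coverage was therefore higher inside or past the gene than at its start in 4 of 4 WT lists, and all genes showed the opposite order. In H2AK119ub at P7 the start bin was covered to 0.898% in members and 33.7% in all genes.

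**Figure D2:**
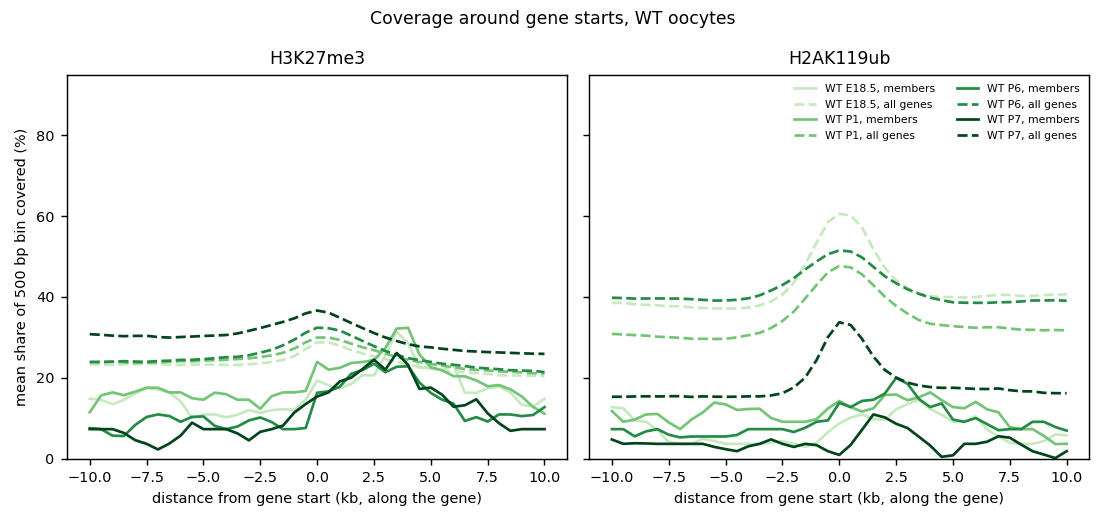
Mean share of a 500 bp bin covered by peaks (y axis, %) by distance from the gene start along the gene (x axis, kb), in WT oocytes. Solid lines are the 55 members with a known start and dashed lines all 16456 genes, darker with age. The lines of all genes top at the start or the next bin for both marks. The members' H3K27me3 lines top at 2500 to 4000 bp past the start, which lies beyond the end of the shortest members.

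The covered length of a member cannot exceed its window, and member windows are short. The median covered length of H3K27me3-marked members was 3.52, 4.00, 3.35 and 3.90 kb at the 4 WT stages, against 7.80, 8.17, 8.38 and 9.40 kb in all marked genes. The peaks themselves were of similar width, with a median of 3.80, 5.35, 4.26 and 5.27 kb for H3K27me3 peaks at members and 3.31, 4.40, 4.34 and 5.92 kb over all peaks of these lists. Peaks at members ranked near the middle of their list by total signal for H3K27me3 (median percentile 55.1, 61.4, 40.7 and 38.2) and lower for H2AK119ub (28.4, 35.1, 25.5 and 32.8). The total signal is the authors' value per peak and was used only to rank peaks within a list.

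Both marks together were less frequent at members than at all genes. In WT oocytes 11 members carried both at E18.5 (all genes 40.6%), 13 at P1 (40.1%), 12 at P6 (43.2%) and 10 at P7 (43.2%). Of the H3K27me3-marked members, 35.5%, 41.9%, 48% and 40% also had H2AK119ub, whereas 88.9%, 88.5%, 91.0% and 86.5% of all H3K27me3-marked genes did. The reverse shares were closer. Of the H2AK119ub-marked members, 64.7%, 56.5%, 60% and 66.7% also had H3K27me3, against 54.0%, 60.3%, 59.5% and 75.8% of all H2AK119ub-marked genes. In PRC2ctrl and PRC2cKO oocytes 3 members had both marks in each (all genes 40.9% and 35%), which is 11.5% and 13.6% of the H3K27me3-marked members against 87.7% and 85.3% of such genes. Neither mark was listed at 33, 29, 37 and 40 members in WT, which is 47.1%, 41.4%, 52.9% and 57.1%, against 19.6%, 28.3%, 23.2% and 36.2% of all genes. The members with both marks in at least 3 of the 4 WT stages were Obox6, Tcstv3, Tdpoz2, Tdpoz3, Tdpoz4, Usp17lc and Usp17le.

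**Figure D3:**
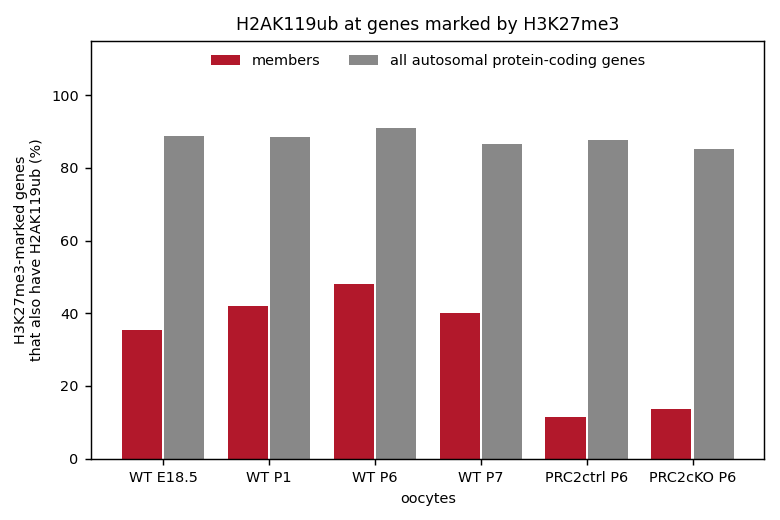
Share of H3K27me3-marked genes that also carry H2AK119ub (y axis, %) in the 6 kinds of oocytes with lists of both marks (x axis). Red bars are members and grey bars all autosomal protein-coding genes. Member bars run from 11.5 to 48% and grey bars from 85.3 to 91.0%.

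The families differed in both marks. The 4 Zscan4 genes, at chromosome 7 from 10900740 (Zscan4b) to 11402318 (Zscan4f), had no H3K27me3 peak in any of the 10 lists. Absence from all 10 lists was common, at 37.4% of all genes and 31.4% of the 70 members. Their one peak of either mark was an H2AK119ub peak of 3.02 kb over Zscan4c in WT P1 oocytes, at percentile 11.0 of that list. Zscan4b, Zscan4d and Zscan4f had no peak of either mark in any of the 16 lists. The 4 Zscan4 promoters are 93.7 to 95.7% identical to their nearest copy. How reads that match several copies were placed is not known here, and its part in these empty windows was not tested. The sequence between the Zscan4 windows was not free of H2AK119ub: peaks covered 22.9% of it at E18.5, 34.5% at P1, 7.94% at P6 and 4.82% at P7, while the windows themselves were covered to 0%, 11.6%, 0% and 0%. Over all 16 lists together, peaks covered 41.0% of the 0.504 Mb cluster and 11.6% of its gene windows, against 30.7% of all member windows and 53.6% of all gene windows.

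The Obox genes fell into an unmarked group and Obox6. Obox1, Obox2, Obox3, Obox5 and Obox7 had no H3K27me3 in any list, and Obox1 and Obox2 had neither mark. Obox3, Obox5 and Obox7 carried H2AK119ub at P1 in WT and in no other list, over 1.95, 1.13 and 0.85 kb. Obox6, at the end of the chromosome 7 cluster that starts with Obox2 (15388851 to 15839679), carried H3K27me3 in all 10 lists. Its 8.43 kb window was covered over 8.43 kb at E18.5, P1 and P7 and 7.54 kb at P6 in WT, over 5.91 and 8.36 kb in PRC1ctrl and PRC1cKO at P6, over 2.35 and 7.20 kb in PRC1ctrl and PRC1cKO at P7, and over 8.43 kb in both PRC2 lists. The shortest value, in PRC1ctrl P7, came from a peak at percentile 3.91 of its list, and the other Obox6 peaks ranked from 51.5 to 93.2. H2AK119ub at Obox6 covered 3.41 kb at E18.5, 3.05 kb at P1, 0 kb at P6 and 2.30 kb at P7 in WT and 0 kb in both PRC2 lists.

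The Usp17l genes carried H3K27me3 in most lists. It was listed at 5, 5, 5 and 4 of 5 genes from E18.5 to P7 in WT, at 3 in both PRC1 lists of P6, at 3 in PRC1ctrl P7, at 4 in PRC1cKO P7 and at 5 in both PRC2 lists. Over these 10 lists the mark was at 41.0 to 50% of all genes. Usp17lc and Usp17le were marked in all 10 lists. Usp17le, the first gene of the chromosome 7 cluster from 104767961 to 104862667, was covered over 3.60, 2.63, 5.28 and 7.17 kb in WT. Usp17la, the last gene of that cluster, was covered over 4.81, 4.29, 1.99 and 3.64 kb. At P6 these were the longest and the shortest covered lengths of the family. H2AK119ub was listed at 3, 3, 4 and 1 of the 5 in WT and covered 34.5%, 40.7%, 55.0% and 5.19% of their windows. Among all genes the listed share was 75.3%, 66.4%, 72.5% and 57%. H2AK119ub was listed at Usp17ld alone in PRC2ctrl (all genes 65.4%) and at Usp17le alone in PRC2cKO (63.9%). Peaks of any list covered 83.5% of the Usp17l windows.

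Of the 8 Tdpoz genes, H3K27me3 was listed at 6, 4, 5 and 4 in WT, against 45.7%, 45.3%, 47.4% and 50% of all genes. The counts at P1 and P7 are thus near the share of all genes. Tdpoz2, Tdpoz3 and Tdpoz4 have windows of 3.15, 3.10 and 3.11 kb, which H3K27me3 covered in full at all 4 WT stages except for 3.07 kb of Tdpoz4 at P1. These 3 genes also carried H2AK119ub at E18.5, P1 and P6 over at least 2.43 kb. At P7 H2AK119ub was listed at Tdpoz4 alone of the 3, over 1.42 kb. Tdpoz8, which lies apart from the cluster, had H3K27me3 in all 10 lists, over 2.84 to 8.68 kb. At P6 in WT it had the longest covered length of the family, 7.02 kb, and Tdpoz9 the shortest of the marked genes, 2.28 kb. Tdpoz5 and Tdpoz7, whose promoters are 99.7% identical, had no H3K27me3 in any list. The Tdpoz cluster on chromosome 3 runs from Tdpoz2 at 93651542 to Tdpoz7 at 94072644.

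The 2 Tcstv genes lie on chromosome 13 and have windows of 3.40 kb. H2AK119ub covered both windows in full at E18.5 and P1. At P6 it covered 0.318 kb of Tcstv1 and 3.40 kb of Tcstv3, and at P7 neither had a peak. Tcstv3 carried H3K27me3 over 3.40 kb at E18.5 and P1, 0.611 kb at P6 and 0.12 kb at P7. Tcstv1 had an H3K27me3 peak in PRC1ctrl P6 alone, over 0.479 kb.

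The Pramel family is the largest, and most of its genes were unmarked in each list. H3K27me3 was listed at 18, 20, 13 and 15 of 45 genes in WT, against 45.7%, 45.3%, 47.4% and 50% of all genes. H2AK119ub was listed at 6, 8, 9 and 11, against 75.3%, 66.4%, 72.5% and 57%. Pramel17, at the start of a 3-gene cluster on chromosome 4 (101834969 to 101943183, ending with Pramel19), was the one Pramel gene with H3K27me3 in all 10 lists. Among Pramel genes marked at P6 in WT, Pramel5 had the longest covered length, 11.7 kb, and Pramel41 the shortest, 2.92 kb. Pramel5 was covered over 9.97, 9.70, 11.7 and 3.88 kb from E18.5 to P7 in WT, over 6.36 and 7.79 kb in PRC1ctrl and PRC1cKO at P6, over 0 and 7.75 kb at P7, and over 11.8 and 11.1 kb in PRC2ctrl and PRC2cKO. PRC1ctrl P7 was thus the one list without H3K27me3 at Pramel5. A second chromosome 4 cluster holds 20 genes from Pramel1 (143394441) to Pramel13 (144408467), and a chromosome 5 cluster holds 18 genes from Pramel33 (93481827) to Pramel50 (95736173). H3K27me3 covered 23.7%, 27.6%, 20.2% and 16.6% of the member windows of the 20-gene cluster in WT and 3.83%, 7.10%, 3.09% and 2.52% of those of the 18-gene cluster. In all, 11 Pramel genes had no H3K27me3 and 10 had neither mark in any list, and 8 of these 10 lie in the chromosome 5 cluster. These are 24.4% and 22.2% of the Pramel genes, against 37.4% and 13.0% of all genes.

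H2AK119ub was at more gene windows of the chromosome 5 cluster at P7 than before. The mark was listed at 0 of its 18 genes at E18.5, 0 at P1, 1 at P6 and 7 at P7 in WT, and at 0 and 1 in PRC2ctrl and PRC2cKO at P6. The 7 genes were Pramel35, Pramel36, Pramel37, Pramel38, Pramel46, Pramel49 and Pramel50, over 1.78, 3.75, 2.43, 2.81, 2.96, 2.43 and 2.43 kb. Coverage of the whole cluster differed less, at 2.62% at E18.5, 1.13% at P1, 1.92% at P6 and 3.60% at P7, and that between the windows was 3.27% at E18.5 and 3.46% at P7. The P7 list covered the least sequence of the 6 H2AK119ub lists, 244.2 Mb against 398.2 to 728.3 Mb, and held the most peaks, 80950 against 56584 to 73681. In Pramel37 and Pramel50 the P7 peak was 2.434 kb wide and began 593 bp past the lower coordinate of the gene in both, and their promoters are 100% identical. Of the 14 members whose promoter is at least 95% identical to that of another member, 6 carried H2AK119ub at P7 and 1 at each of E18.5, P1 and P6. Of the 41 members with a lower identity, 8, 15, 11 and 6 carried it from E18.5 to P7. Of the 15 members without a promoter sequence, 8, 7, 8 and 3 did. At E18.5, P1 and P6 it was listed at 75.3%, 66.4% and 72.5% of all genes. The shares of these classes at P7, 42.9%, 14.6% and 20%, lay under the 57% of all genes. How reads that match more than 1 copy were placed is not given in the sources used here, and its part in these calls was not tested.

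**Figure D4:**
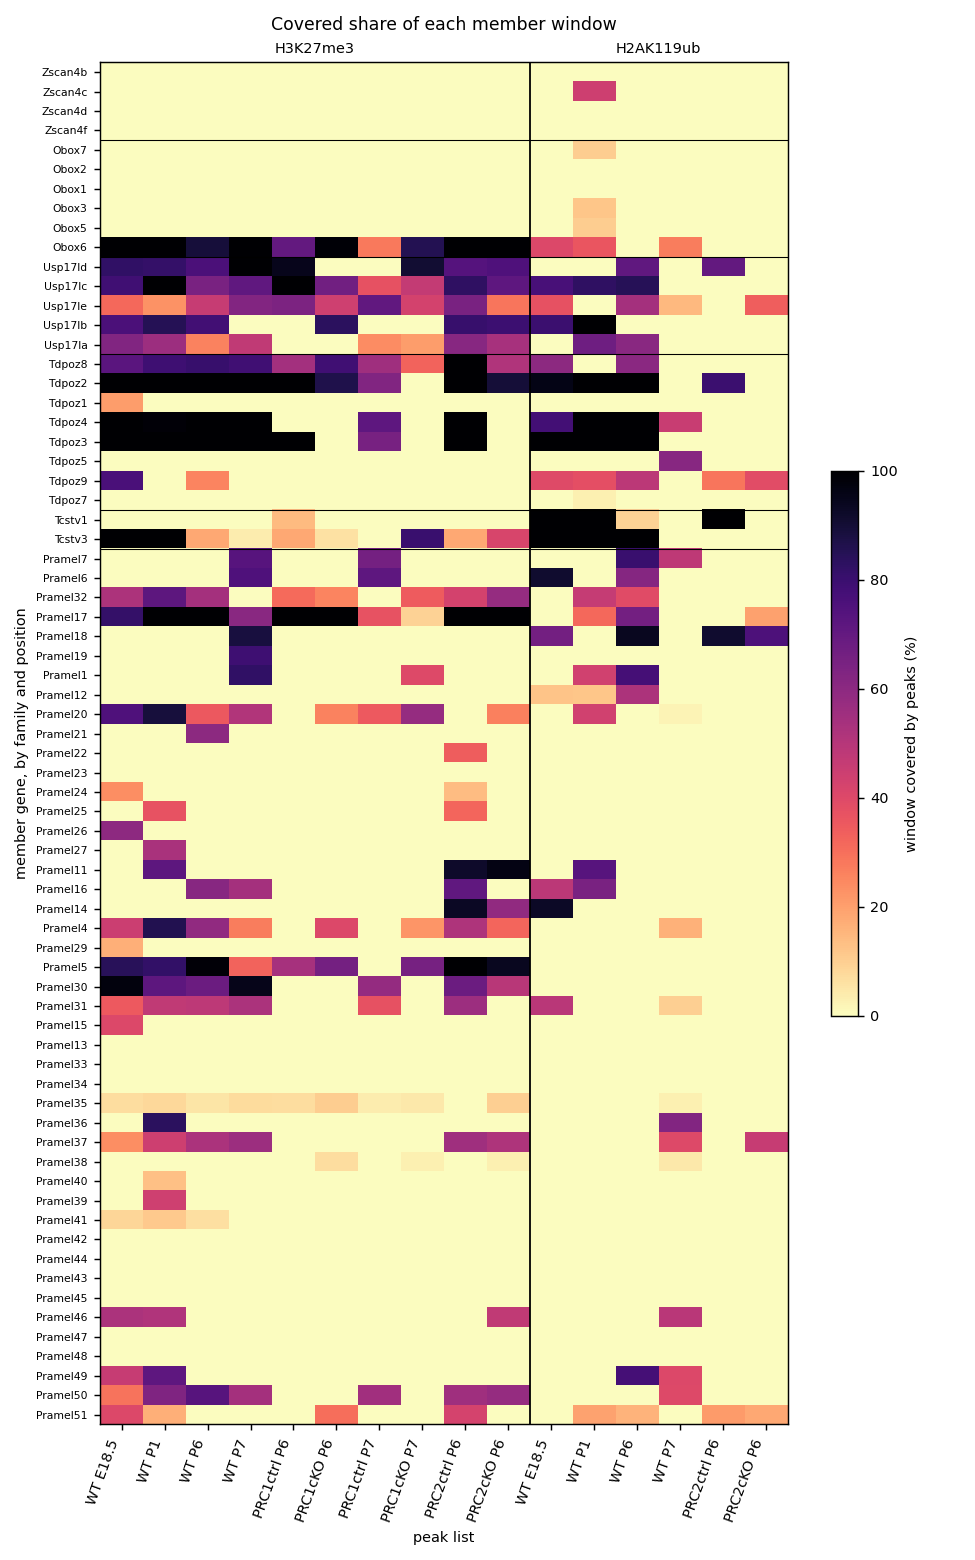
Share of each member's window covered by peaks (colour, 0 to 100%) for the 70 members (rows, by family and position) in the 10 H3K27me3 and 6 H2AK119ub lists (columns). The 4 Zscan4 rows hold 1 coloured cell, the Obox6 row is filled in all H3K27me3 columns, and the chromosome 5 Pramel genes, from Pramel33 to Pramel50, are mostly empty.

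The course over WT development was read as members lost (marked in the first list, unmarked in the second) and gained. No p-value was possible, since each group has a single list without replicate values, and a peak just under the authors' threshold counts as absent. For H3K27me3 from E18.5 to P1, 6 of 31 marked members were lost (all genes 7.64%) and 6 of 39 unmarked members gained (5.64%). From P1 to P6, 9 were lost (7.89%) and 3 gained (10.4%), all but 1 of these 12 being Pramel genes, with Tdpoz9 the exception. From P6 to P7, 5 were lost (11.9%) and 5 gained (15.6%). The lost members had peaks of lower rank than those kept, with median percentiles of 23.6 against 62.5, 30.5 against 62.3 and 23.6 against 52.5 in the first list of the 3 steps.

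All 5 members that gained H3K27me3 at P7 were Pramel genes. Pramel1 was covered over 0, 0, 0 and 6.08 kb from E18.5 to P7, Pramel6 over 0, 0, 0 and 4.73 kb, Pramel18 over 0, 0, 0 and 4.24 kb, Pramel7 over 0, 0, 0 and 3.90 kb, and Pramel19 over 0, 0, 0 and 3.78 kb. Pramel6 and Pramel7 are neighbours on chromosome 2 (87506565 to 87510865 and 87489088 to 87492418), and PRAMEL7 is known for promoting degradation of UHRF1, a factor needed for maintenance of DNA methylation. Of the 5, Pramel1, Pramel6, Pramel7 and Pramel18 had carried H2AK119ub at P6, over 5.71, 3.87, 4.27 and 4.50 kb. At P7 only Pramel7 still had it, over 2.55 kb. Pramel19 had no H2AK119ub in any list. In PRC1ctrl P7 oocytes Pramel1, Pramel18 and Pramel19 had no H3K27me3, and Pramel6 and Pramel7 did. With lists trimmed to equal covered length, the step from P6 to P7 had 1 gain and 7 losses, a net change of -6 in place of 0.

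H2AK119ub was lost at 6 of 17 members (all genes 14.8%) and gained at 12 of 53 (9.36%) from E18.5 to P1. It was lost at 10 of 23 (5.08%) and gained at 7 of 47 (28.2%) from P1 to P6. From P6 to P7 it was lost at 16 of 20 (24.9%) and gained at 11 of 50 (9.37%). The 4 members that kept H2AK119ub from P6 to P7 were Pramel49, Pramel7, Tdpoz4 and Usp17le. The largest losses at P7 were Pramel17 (7.30 kb at P6), Pramel12 (5.71 kb), Pramel1 (5.71 kb), Tdpoz8 (5.24 kb) and Usp17la (4.66 kb). Covered length over all member windows was 60.3, 69.3, 81.3 and 31.4 kb from E18.5 to P7, and the step from P6 to P7 was a ratio of 0.386 in members and 0.362 in all genes. With lists trimmed by signal to equal covered length, the net change from P6 to P7 was 15 in place of -5. That value follows from the trimming, which left the P7 list whole at 80950 peaks and kept 5030 of the 61419 peaks at P6. In the trimmed lists 0 members were marked at P6 and 15 at P7, against 28.1% and 57.0% of all genes.

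Control lists of the same stage were also set beside WT. At P6, 13 of the 25 H3K27me3 members of WT were unmarked in PRC1ctrl (all genes 9.33%) and 1 was gained (5.79%), whereas 5 were unmarked in PRC2ctrl (6.98%) and 6 gained (4.75%). At P7, 9 of 25 were unmarked in PRC1ctrl (13.4%) and 0 gained (3.01%). For H2AK119ub at P6, 14 of 20 were unmarked in PRC2ctrl (13.1%) and 0 gained (8.77%). Members at P6 were covered over 109.3 kb of H3K27me3 in WT, 58.5 kb in PRC1ctrl and 124.2 kb in PRC2ctrl. With lists trimmed to equal covered length, the net change from WT to PRC1ctrl was -8 in place of -12 at P6 and 1 in place of -9 at P7. Those from WT to PRC2ctrl at P6 were then -2 in place of 1 for H3K27me3 and 0 in place of -14 for H2AK119ub, where neither list had a marked member left. These lists differ in genotype and are not replicates of each other.

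In PRC1cKO oocytes at P6, H3K27me3 was lost at 3 of 13 members (all genes 9.55%) and gained at 5 of 57 (7.25%) relative to PRC1ctrl. The lost members were Usp17ld (4.19 kb in the control), Tdpoz3 (3.10 kb) and Tcstv1 (0.479 kb). The gained members were Pramel4 (4.95 kb), Pramel38 (4.28 kb), Usp17lb (3.61 kb), Pramel51 (2.53 kb) and Pramel20 (2.17 kb). The peaks behind the 5 gains ranked between percentiles 0.977 and 34.5 of their list. Pramel4, Usp17lb and Pramel20 were also marked in WT P6 oocytes. Pramel20 was unmarked in PRC2ctrl P6 as well as in PRC1ctrl P6.

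At P7, H3K27me3 was lost at 8 of 16 members (all genes 15.4%) and gained at 7 of 54 (11.7%). Pramel6 and Pramel7 were covered over 4.50 and 3.50 kb in PRC1ctrl and over 0 kb in PRC1cKO, after 0 kb in both genotypes at P6. The P7 value of PRC1ctrl was thus close to that of WT, 4.73 and 3.90 kb, and PRC1cKO had no peak at either gene. Tdpoz2, Tdpoz3 and Tdpoz4 were covered over 1.97, 2.01 and 2.22 kb in PRC1ctrl and 0 kb in PRC1cKO, with control peaks at percentiles 13.9, 4.33 and 40.0. Pramel50 (3.33 kb in the control), Pramel31 (3.15 kb) and Pramel30 (3.03 kb) completed the losses. The gains were Pramel5 (7.75 kb in PRC1cKO), Usp17ld (3.99 kb), Pramel32 (3.08 kb), Pramel1 (2.96 kb), Tcstv3 (2.73 kb), Pramel4 (2.71 kb) and Pramel38 (1.86 kb). Of these 7, all but Pramel32 and Pramel38 were marked in WT P7 oocytes. From P6 to P7, PRC1ctrl lost 5 of 13 members (all genes 16.2%) and gained 8 of 57 (11.5%), while PRC1cKO lost 3 of 15 (14%) and gained 3 of 55 (9.56%). Pramel6 and Pramel7 were among the 8 and not among the 3, and the difference between the genotypes was not tested.

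In PRC2cKO oocytes at P6, H3K27me3 was lost at 8 of 26 members (all genes 16%) and gained at 4 of 44 (3.46%) relative to PRC2ctrl. Covered length over members was 124.2 kb in the control and 99.1 kb in the cKO, a ratio of 0.798, against 0.726 over all genes. The lost members were Pramel31 (4.74 kb in the control), Pramel51 (3.53 kb), Pramel16 (3.42 kb), Tdpoz4 (3.11 kb), Tdpoz3 (3.10 kb), Pramel22 (3.03 kb), Pramel25 (2.67 kb) and Pramel24 (1.61 kb). The control peaks at Tdpoz4 and Tdpoz3 ranked at percentiles 85.5 and 53.4, and those at Pramel22, Pramel24, Pramel25 and Pramel51 all under 8. The gains were Pramel35 (6.28 kb), Pramel46 (2.86 kb), Pramel20 (2.20 kb) and Pramel38 (1.95 kb). H2AK119ub was lost at 3 of 6 members (9.63%) and gained at 3 of 64 (13.8%): Tcstv1, Usp17ld and Tdpoz2 were lost and Usp17le, Pramel37 and Pramel17 gained. When the H3K27me3 lists were trimmed by signal to equal covered length, the net change in PRC2cKO was 13 in place of -4 and that in PRC1cKO at P7 was 3 in place of -1. Trimming left the PRC2cKO list whole at 49615 peaks and cut PRC2ctrl from 53667 to 22012, so the 13 reflects a cut on the control side only. It left 9 members marked in PRC2ctrl and 22 in PRC2cKO, against 37.2% and 41.0% of all genes.

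A pair of members, picked after their values were seen, separated the 3 cKO lists of H3K27me3 from the 7 WT and control lists. Tdpoz3 was marked in all 7, over 3.10 kb in 6 of them and 2.01 kb in PRC1ctrl P7, and unmarked in PRC1cKO P6, PRC1cKO P7 and PRC2cKO P6. Its peaks ranked at percentiles 65.9 to 80.8 in WT, 53.4 in PRC2ctrl P6, 23.5 in PRC1ctrl P6 and 4.33 in PRC1ctrl P7. This pattern was found in 22 of 20661 genes (0.106%). Pramel38 was unmarked in all 7 and covered over 4.28, 1.86 and 1.95 kb in the 3 cKO lists, a pattern of 7 genes in all (0.0339%). The Pramel38 window is 62.7 kb long, the longest of the members, and the peaks in it ranked at percentiles 34.5, 14.0 and 12.4. Tdpoz4 was also unmarked in the 3 cKO lists, and unmarked as well in PRC1ctrl P6.

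**Figure D5:**
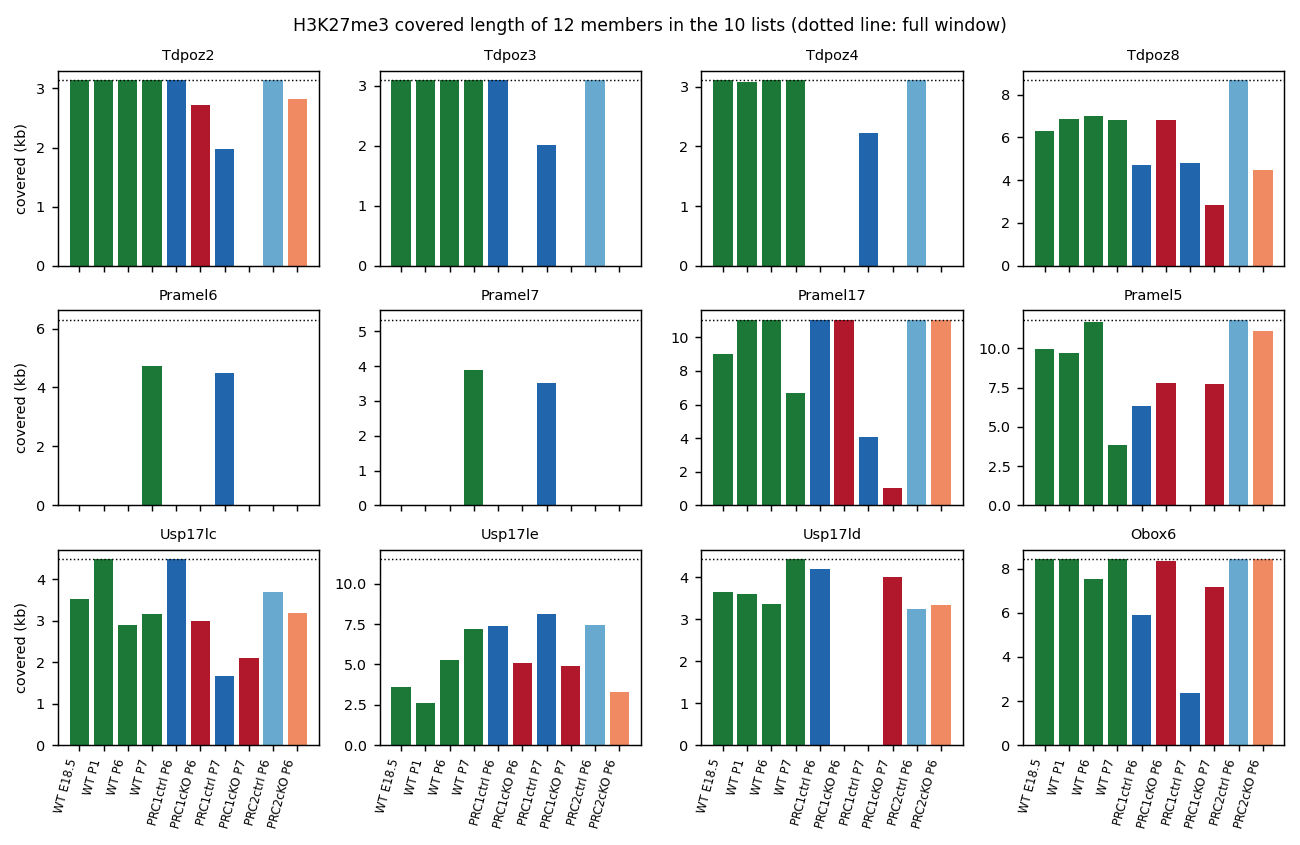
H3K27me3 covered length (y axis, kb) of 12 members in the 10 lists (x axis); green bars are WT, blue bars controls, red and orange bars PRC1cKO and PRC2cKO, and the dotted line is the full window. The members were chosen after their values were seen. Tdpoz3 has no bar in the 3 cKO lists, and Pramel6 and Pramel7 have bars in WT P7 and PRC1ctrl P7 only.

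Other genes of the 2-cell programme, taken from lists chosen with earlier results of these data known, were read in the same way. Of 26 regulators of the programme, 2 to 6 carried H3K27me3 and 15 to 23 carried H2AK119ub, depending on the list. These are 7.69 to 23.1% for H3K27me3, against 41.0 to 50% of all genes, and 57.7 to 88.5% for H2AK119ub, against 57.0 to 75.3%. Among the regulators, Duxf3, which encodes the DUX activator, was covered over its whole 5.59 kb window in all 16 lists, cKO lists included. A window covered in full cannot show a change in signal. The placing of reads that match several places is not known here, and its part in the Duxf3 calls was not tested. Dppa2, which acts upstream of Dux, had no H3K27me3 in any list and H2AK119ub over 5.19, 4.16, 9.92 and 0 kb in WT. Of 21 other early zygotic transcripts, 7 to 11 carried H3K27me3 and 7 to 13 carried H2AK119ub, which is 33.3 to 52.4% and 33.3 to 61.9%. Zfp352, a zinc finger gene often used as a 2-cell reporter, had H3K27me3 in WT P7 alone, over 0.457 kb, and no H2AK119ub.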

How the data were processed

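Oocytes of 16 groups, with 2 samples each, were profiled by CUT&Tag. Per the labels, reads were 150 bp long and Drosophila S2 cells were added (for example 2000 to 1000 oocytes). The submitters' processing notes list SAMtools, Bowtie2, deepTools, Picard 3.0.0 and Trim Galore 0.6.10 with the builds GRCm38, mm10 and dm6, without roles. Not given in the sources used here were the peak caller, its threshold, scaling by S2 reads, the merging of samples and the placing of reads that match several copies. For each group the authors deposited a single list of peaks with their signal, which was used as a rank within its list and to trim lists. Depth per sample is unknown: lists held 49615 to 83994 peaks over 244.2 to 728.3 Mb.

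Covered bases of each gene span plus 1 kb were computed with Python 3.11.15, numpy 2.4.6 and pandas 2.3.3, intervals with scipy 1.17.1 (exact Clopper-Pearson, 95%), promoter identity by global alignment with Biopython 1.88. Coverage code was tested on the WT P6 H3K27me3 list, against direct sums over peaks and with peaks removed or added at set genes. Clusters chain members within 500 kb and hold 3 or more. Named are, per comparison, up to 12 members with the largest change in covered length among those lost or gained, members marked in every list of a mark, the longest and shortest covered lengths per family in WT P6, and the ends of clusters; others named were chosen after their values were seen. Protein identity was planned, and promoter identity was used in its place. Members and lists were chosen with earlier results of these data known. Alternatives were no flank, 5 kb flanks, 25% of the window covered, lists trimmed by signal to equal covered length and clusters chained at 1 Mb.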

Additional observations from a re-analysis of the deposited data

Results flagged for a closer look

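The net change in H3K27me3-marked members (gained minus lost) from PRC1ctrl to PRC1cKO was 2 at P6 and -1 at P7. It is listed because the sign is opposite at the 2 stages, and the difference was not tested, with 1 list per group. With lists trimmed to equal covered length the net changes were 4 and 3, of the same sign. At P6 the 5 gained members were Pramel4, Pramel38, Usp17lb, Pramel51 and Pramel20. At P7 the 8 lost members were Pramel6, Pramel7, Pramel30, Pramel31, Pramel50, Tdpoz2, Tdpoz3 and Tdpoz4. Pramel4 and Pramel38 were gained at both stages, and Tdpoz3 was lost at both.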

How the results depend on the processing

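No paired analysis was possible because the deposited lists hold 1 value per group and none per replicate, and for the same reason no replicate was left out. Values are net changes in marked members or counts of marked members out of 70. The 4 comparisons between control lists were added after the data were seen. Chaining members at 1 Mb also gave 7 clusters.

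Without a flank, the net change from P6 to P7 was 5 in PRC1ctrl (3 with 1 kb) and 1 in PRC1cKO (0). With 5 kb flanks it was 2 for WT H3K27me3 from P6 to P7 (0), -5 and -2 for WT H2AK119ub from P1 to P6 (-3) and from P6 to P7 (-5), 5 in PRC1ctrl (3) and 2 in PRC1cKO (0) from P6 to P7, and -1 from WT to PRC2ctrl at P6 (1). H2AK119ub was then at 10 members in each PRC2 list (6), against 72.0% of all genes in PRC2ctrl and 71.1% in PRC2cKO. Both marks were at 5 members in PRC2cKO (3).

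With 25% of the window covered, the net change was 1 for WT H3K27me3 from E18.5 to P1 (0) and 1 from P6 to P7 (0). It was 1, 1 and -9 for the 3 WT H2AK119ub steps (6, -3 and -5), -4 for PRC1cKO at P7 (-1), -1 for PRC2cKO H2AK119ub (0), -2 for PRC1cKO from P6 to P7 (0) and 2 from WT to PRC2ctrl (1). H2AK119ub at P7 was at 9 members (15), against 29.4% of all genes, and both marks at 5 members (10).

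Trimming kept the peaks of highest total signal and left the WT P7 H2AK119ub and PRC2cKO H3K27me3 lists whole. The net change became -3 and -6 for WT H3K27me3 from E18.5 to P1 and P6 to P7 (0 and 0), 1 and 15 for WT H2AK119ub from E18.5 to P1 and P6 to P7 (6 and -5), 4 and 3 for PRC1cKO at P6 and P7 (2 and -1), 13 for PRC2cKO H3K27me3 (-4) and 2 for PRC1cKO from P6 to P7 (0). Between controls it became -2 from WT to PRC2ctrl and 1 from WT to PRC1ctrl at P7 for H3K27me3 (1 and -9) and 0 for H2AK119ub (-14). H3K27me3 was then at 20, 11 and 5 members in WT P1, P6 and P7, at 3, 7, 6 and 9 in PRC1ctrl and PRC1cKO of P6 and of P7, and at 9 in PRC2ctrl. H2AK119ub was at 1, 2 and 0 in WT E18.5, P1 and P6 and at 0 in both PRC2 lists. Over the 10 trimmed H3K27me3 lists the marked share was 4.29 to 32.9% of members and 37.2 to 42.6% of all genes. Over the 6 trimmed H2AK119ub lists it was 0 to 21.4% of members and 28.1 to 57.0% of all genes. Both marks were at 1, 2, 0 and 3 members in WT and at 0 in both PRC2 groups.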

Other observations

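The 54 autosomal pseudogenes with the same prefixes were outside the rule, and 47 of them are Obox pseudogenes. H3K27me3 was listed at 2, 1, 0 and 15 of the 47 Obox pseudogenes at E18.5, P1, P6 and P7 in WT. The shares of all autosomal protein-coding genes in these lists were 45.7%, 45.3%, 47.4% and 50%. In the crosses H3K27me3 was listed at 1 in PRC1ctrl P6 (all genes 46%) and 1 in PRC1cKO P6 (45.5%). It was listed at 9 in PRC1ctrl P7 (44.8%) and 0 in PRC1cKO P7 (44.4%), at 1 in PRC2ctrl (46.6%) and at 0 in PRC2cKO (41%). The 15 at WT P7 and the 9 at PRC1ctrl P7 all lie on chromosome 7 and rest on 15 and 9 distinct peaks, with median signal percentiles of 20.6 and 28.1. H2AK119ub was listed at 13, 14, 9 and 17 of the 47 in WT, against 75.3%, 66.4%, 72.5% and 57% of all genes. It was listed at 7 in PRC2ctrl (65.4%) and at 2 in PRC2cKO (63.9%). The 5 protein-coding Obox genes other than Obox6 had no H3K27me3 in any of these lists. The pseudogenes were looked at after the values of the coding genes were seen, and the placing of reads among near-identical copies is not known here.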
